A study of Mus musculus with 2 samples.

Results

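The cell division genes followed here are 41 genes taken by symbol from the 27998 rows of the count matrices. They cover DNA replication, entry into the cell cycle, chromosome condensation, the centromere, the spindle, cytokinesis and the kinases that drive mitosis. All 41 were found in both matrices and all 41 had at least 20 UMIs (unique molecular identifiers, that is, counted RNA molecules) over both. A mitotic core of 24 genes and a replication core of 11 genes were set apart among them. The mitotic core leaves out Anln and Diaph3, which non-dividing brain cells also transcribe, and Smc4. Some genes that were kept, such as Ccnb1, were also found in neurons.

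Cells that divide make the parts of the division machinery in waves. Replication enzymes are transcribed under E2F factors around the entry into S phase, and the genes of the kinetochore, spindle and cleavage furrow follow in G2 and mitosis. Most cells of the adult mouse brain have left the cell cycle. The main dividing populations are oligodendrocyte precursor cells (OPC), which are spread through the tissue, and the neural progenitors of the subventricular zone and dentate gyrus, whose amplifying cells give rise to immature neurons. Both are known to be sensitive to ionizing radiation.

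The nuclei came from frozen whole brains of C57BL/6 mice, given as female C57BL/6J mice aged 4 to 6 weeks when bought. WBRT-28d is the library of mice that had received whole-brain irradiation in 5 fractions of 2 Gy, 10 Gy in all, 28 days before harvest. ShamRT-28d is the library of mice harvested at the same time that were mock-irradiated and carry the label untreated. Each library pooled 2 brains before capture, so the 4 mice gave 1 library per condition and no test across mice was possible. A difference between conditions and a difference between libraries cannot be told apart, and every interval below is a 95% interval that covers counting error only.

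After filtering and removal of the barcodes that Scrublet called doublets, 14044 nuclei with 56833007 UMIs remained in WBRT-28d and 10342 nuclei with 40861521 UMIs in ShamRT-28d. The median was 2491 UMIs per nucleus in WBRT-28d and 2326 in ShamRT-28d. The 2 libraries shared 43 barcode sequences, of which 36 were among the nuclei kept in both. Barcodes of over 20000 UMIs, which are likely to hold more than 1 nucleus, numbered 198 with 12.7% of the UMIs in WBRT-28d and 148 with 9.62% in ShamRT-28d. The doublet calls fell unevenly on the mitotic nuclei described below, so the main values are given with these calls removed and, where this moved them, with the calls kept.

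The promoters of the members that the results turn on are shown first, because genes of the G2 and mitosis wave share known promoter elements. The 5 windows are the 250 bases before the annotated start of the gene, from RefSeq on GRCm38.p6, written 5′ to 3′ on the strand of the gene. Top2a lies at chr11:99024190-99024439 on the minus strand, Casc5 (Knl1) at chr2:119046869-119047118 on the plus strand, Ect2 at chr3:27153879-27154128 on the minus strand and Mki67 at chr7:135716380-135716629 on the minus strand. These 4 were picked, after their values had been seen, from the genes of the mitotic core with low ratios between the libraries. Ccnb1 is not shown because its RefSeq and GENCODE starts were 84 bases apart. Mcm6, at chr1:128359706-128359955 on the minus strand, is a replication gene that was not lower. Capitals mark matches to 3 known elements, each searched on both strands, so that reverse complements are in capitals too. The cell cycle homology region (CHR) was searched as TTTGAA and in its variant form as TTCGAA. The CCAAT box was searched by the letters of its name. The E2F site was searched as TTCCCGC in its main form and in its further forms as TTCGCGC or else in the same way as TTGCCGC and lastly in the form written TTGGCGC, whose reverse complement can overlap a CCAAT box.
Top2a: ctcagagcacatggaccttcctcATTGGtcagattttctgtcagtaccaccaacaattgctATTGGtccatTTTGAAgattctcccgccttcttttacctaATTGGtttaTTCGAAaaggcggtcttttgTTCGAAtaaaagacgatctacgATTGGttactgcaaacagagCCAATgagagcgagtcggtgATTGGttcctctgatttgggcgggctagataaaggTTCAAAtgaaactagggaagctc
Casc5: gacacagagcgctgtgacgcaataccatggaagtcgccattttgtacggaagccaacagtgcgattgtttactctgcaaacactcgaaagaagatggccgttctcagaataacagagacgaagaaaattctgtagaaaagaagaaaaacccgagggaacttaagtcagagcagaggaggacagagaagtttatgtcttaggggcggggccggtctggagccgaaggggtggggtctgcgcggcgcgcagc
Ect2: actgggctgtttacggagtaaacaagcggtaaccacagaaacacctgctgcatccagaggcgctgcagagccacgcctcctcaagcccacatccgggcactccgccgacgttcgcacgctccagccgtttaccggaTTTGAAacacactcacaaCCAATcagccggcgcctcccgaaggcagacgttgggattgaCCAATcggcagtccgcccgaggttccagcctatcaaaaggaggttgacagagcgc
Mki67: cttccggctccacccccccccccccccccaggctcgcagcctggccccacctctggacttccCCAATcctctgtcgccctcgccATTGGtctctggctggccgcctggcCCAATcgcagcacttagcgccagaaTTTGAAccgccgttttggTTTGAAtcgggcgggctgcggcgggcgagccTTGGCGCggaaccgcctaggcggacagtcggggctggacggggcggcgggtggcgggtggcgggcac
Mcm6: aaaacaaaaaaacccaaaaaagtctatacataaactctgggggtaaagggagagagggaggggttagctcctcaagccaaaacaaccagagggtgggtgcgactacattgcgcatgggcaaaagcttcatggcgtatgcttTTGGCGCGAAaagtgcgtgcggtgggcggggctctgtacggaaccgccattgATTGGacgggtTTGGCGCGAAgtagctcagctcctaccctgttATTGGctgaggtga

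A window was found for 34 of the 41 members. CHR letters were present in 8 of 21 windows of the mitotic core (38.1%), in 1 of 10 of the replication core (10.0%) and in 17.4% of the windows of all 27025 genes in the table. CCAAT was present in 17 of 21 windows of the mitotic core (81.0%), in 6 of 10 of the replication core and in 34.5% of all windows. E2F letters were present in 4 of 21 (19.0%), 4 of 10 (40.0%) and 7.97%. The Top2a window held 4 CHR and 6 CCAAT matches, with the nearest CHR match 23 bases before the start. The Casc5 window held none of the searched letters, which says nothing of the factors that act there. These matches describe the sequences and were not tested against the ratios below.

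Over all nuclei, transcripts of most mitotic genes were less abundant in WBRT-28d, and those of replication and of entry into the cycle were mostly within 1.5-fold. By a fixed size of 1.5-fold in CPM (UMIs of the gene per 1000000 UMIs of the library), 19 of the 41 members were lower in WBRT-28d, none was higher and 22 were within 1.5-fold. Of all 18537 genes with at least 20 UMIs, 9.5% were lower and 5.9% were higher by the same size. The median log2 ratio was -0.52 over the members and -0.01 over all these genes. The members are not independent of each other, since many of their UMIs came from the same nuclei. With the doublet calls kept, 14 members were lower and none higher, and the 5 that no longer passed were Kif11, Kif15, Kif23, Cdk1 and Bub1. The share of all genes was not counted with the calls kept.

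**Figure D1:**
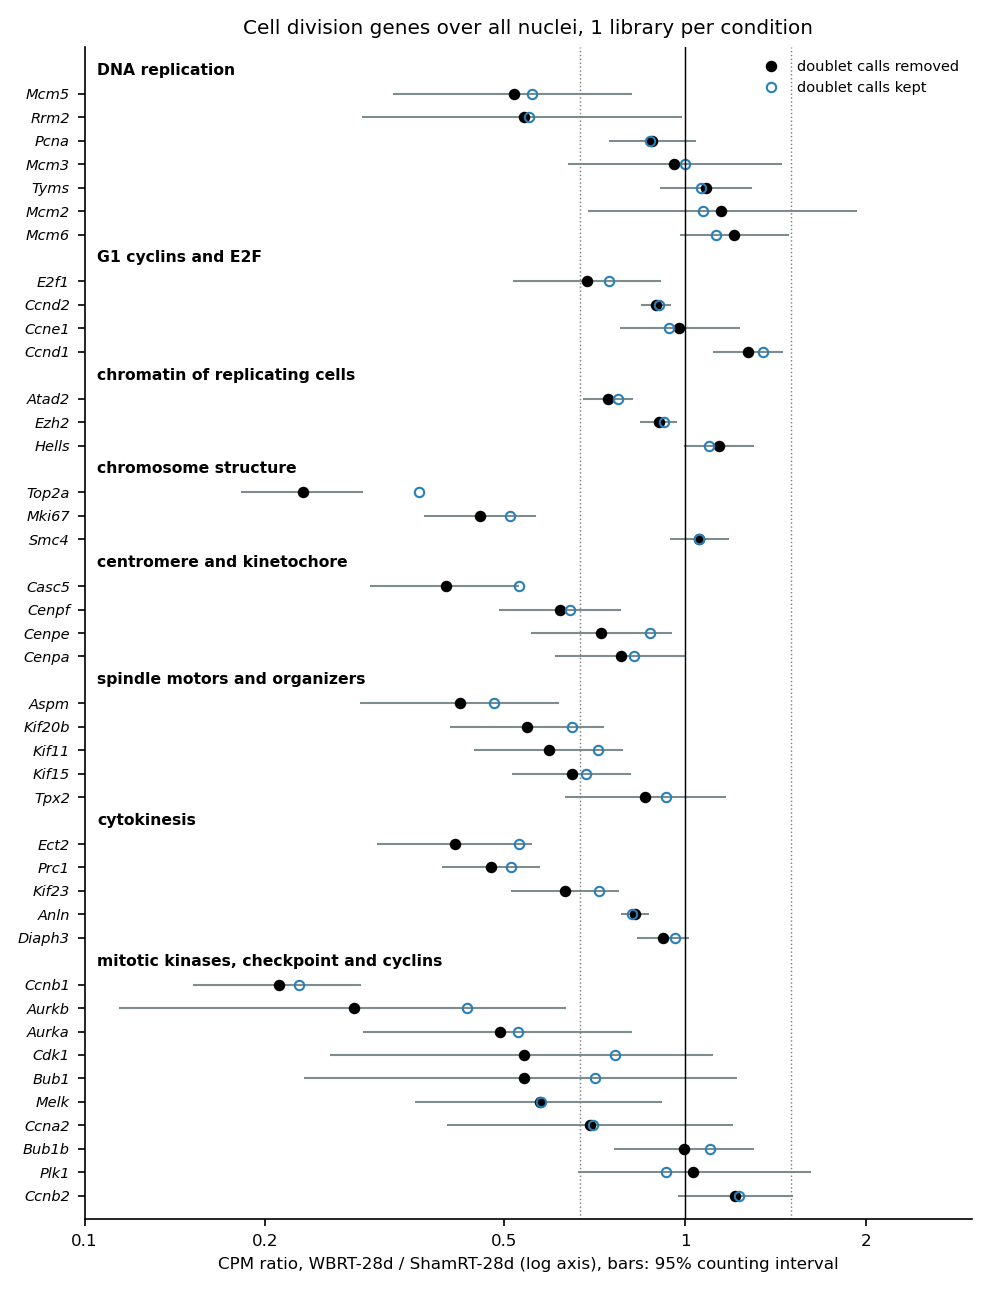
CPM of each member in WBRT-28d divided by its CPM in ShamRT-28d, over all nuclei (log axis), by role. Filled points have the doublet calls removed, with bars for the exact 95% counting interval, open points have them kept, and dotted lines mark 1.5-fold. Points of the mitotic groups lie mostly left of the lower line, with Ccnb1 at 0.2105 and Top2a at 0.231, while replication and G1 genes lie near 1.

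The mitotic core summed to 2277 UMIs (40.1 CPM) in WBRT-28d and 2944 UMIs (72.05 CPM) in ShamRT-28d, a ratio of 0.556 (0.526–0.588). Of its 24 genes 17 were lower, and its median log2 ratio was -0.84. The replication core summed to 2898 UMIs (50.99 CPM) in WBRT-28d and 2315 UMIs (56.65 CPM) in ShamRT-28d, a ratio of 0.900 (0.852–0.951), and 2 of its 11 genes were lower. With the doublet calls kept, the ratio of the mitotic core was 0.631. With Smc4 put back into the core it was 0.635 (0.605–0.667), and with Smc4, Anln and Diaph3 it was 0.744 (0.721–0.769). The mitotic sum was lower in WBRT-28d under each of these settings. The intervals take UMIs as independent, although many of them came from the same nuclei.

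The replication enzymes were mostly at similar levels. Mcm2, Mcm3, Mcm5 and Mcm6 encode subunits of the helicase that unwinds DNA at the fork. Mcm6 had 255 UMIs in WBRT-28d and 152 in ShamRT-28d (ratio 1.21, 0.983–1.48), Mcm2 had 43 and 27, and Mcm3 had 60 and 45. Only Mcm5 of the 4 was lower, with 36 UMIs in WBRT-28d and 50 in ShamRT-28d (ratio 0.518, 0.328–0.811). Pcna, the sliding clamp of the DNA polymerases, had 338 UMIs in WBRT-28d and 276 in ShamRT-28d, while reads of its processed pseudogenes may be counted with it. Tyms, which makes thymidylate, had 337 and 224. Rrm2, the S-phase subunit of ribonucleotide reductase, was lower, with 21 UMIs in WBRT-28d and 28 in ShamRT-28d (ratio 0.539, 0.291–0.984).

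The genes of entry into the cycle did not pass the 1.5-fold size in either direction. Ccnd1 and Ccnd2 encode D-type cyclins, which activate Cdk4 and Cdk6 in G1. Ccnd1 had 658 UMIs in WBRT-28d and 372 in ShamRT-28d, a ratio of 1.27 (1.12–1.45) and the highest of the 41. Ccnd2 had 3056 and 2460 UMIs (ratio 0.893, 0.847–0.942). Ccne1, cyclin E1, had 189 UMIs in WBRT-28d and 139 in ShamRT-28d. E2f1, the transcription factor released by the retinoblastoma protein, had 104 and 109 UMIs (ratio 0.686, 0.519–0.906), just inside the size.

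The 3 chromatin genes were also within 1.5-fold. Ezh2, the methyltransferase of Polycomb complex PRC2, had 1963 UMIs in WBRT-28d and 1563 in ShamRT-28d (ratio 0.903, 0.845–0.966). Hells, a chromatin remodeller needed for DNA methylation, had 599 and 379 UMIs (ratio 1.14, 0.998–1.30). Atad2, a bromodomain ATPase, had 916 and 886 UMIs, a ratio of 0.743 (0.677–0.816) whose interval stays under 1.

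Top2a and Mki67 were lower and the condensin subunit Smc4 was not. Top2a encodes topoisomerase IIα, which separates the intertwined sister chromatids. It had 102 UMIs in 33 nuclei of WBRT-28d and 317 UMIs in 61 nuclei of ShamRT-28d, a ratio of 0.231 (0.183–0.290), or 0.361 (0.298–0.435) with 173 and 319 UMIs when the doublet calls were kept. Mki67, whose protein coats mitotic chromosomes and is the antigen of Ki-67 stains, had 149 UMIs in 134 nuclei of WBRT-28d and 235 UMIs in 166 nuclei of ShamRT-28d (ratio 0.456, 0.369–0.562). Smc4 had 816 and 556 UMIs (ratio 1.06, 0.946–1.18).

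Of the 4 genes of the centromere and kinetochore, 2 were lower. Casc5 (Knl1) encodes the scaffold that binds the checkpoint proteins to the kinetochore and had 81 UMIs in WBRT-28d and 146 in ShamRT-28d (ratio 0.399, 0.300–0.527). Cenpf, a large kinetochore protein, had 142 and 165 (ratio 0.619, 0.491–0.779). Cenpe, the kinesin that moves chromosomes to the plate, had 117 UMIs in WBRT-28d and 116 in ShamRT-28d (ratio 0.725, 0.556–0.946), and Cenpa, the histone H3 variant of centromeres, had 140 and 129 (ratio 0.780, 0.610–0.999). All 4 point estimates lay under 1.

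Of the 5 spindle genes, 4 were lower. Aspm, a spindle pole protein whose loss causes microcephaly in humans, had 47 UMIs in WBRT-28d and 80 in ShamRT-28d (ratio 0.422, 0.288–0.613). The kinesin Kif20b had 85 and 112 UMIs (ratio 0.546), Kif11, which pushes the spindle poles apart, had 94 and 114 (ratio 0.593), and Kif15, which can stand in for it, had 154 and 171 (ratio 0.648). Tpx2, the activator of Aurora A on the spindle, had 99 UMIs in WBRT-28d and 83 in ShamRT-28d, a ratio of 0.858 (0.634–1.16).

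Of the 5 cytokinesis genes, 3 were lower. Ect2, the exchange factor that activates RhoA at the furrow, had 76 UMIs in WBRT-28d and 132 in ShamRT-28d (ratio 0.414, 0.308–0.553). Prc1, which bundles the microtubules of the spindle midzone, had 199 and 301 (ratio 0.475, 0.395–0.571), and Kif23, the kinesin of centralspindlin, had 185 and 211 (ratio 0.630, 0.515–0.772). Anln, which encodes the actin-binding scaffold anillin, had 3499 UMIs in WBRT-28d and 3050 in ShamRT-28d (ratio 0.825, 0.786–0.866). Most of its UMIs lay in oligodendrocytes, with 2086 in the oligodendrocyte class of WBRT-28d and 2544 in that of ShamRT-28d. The formin gene Diaph3 had 996 and 780 UMIs (ratio 0.918, 0.835–1.01).

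Of the 10 genes of mitotic kinases, checkpoint and cyclins, 6 were lower, and the mitotic cyclins differed among themselves. Ccnb1, cyclin B1, had 53 UMIs in 46 nuclei of WBRT-28d and 181 UMIs in 134 nuclei of ShamRT-28d, the lowest ratio of the members at 0.2105 (0.152–0.287). Ccnb2, cyclin B2, had 232 UMIs in WBRT-28d and 138 in ShamRT-28d (ratio 1.21, 0.9749–1.503). Ccna2, cyclin A2, had 29 and 30 UMIs, a ratio of 0.695 just inside the size. The Aurora kinase genes were both lower, with 28 UMIs in WBRT-28d and 41 in ShamRT-28d for Aurka (ratio 0.491, 0.292–0.813) and 9 and 23 for Aurkb (ratio 0.281, 0.115–0.631).

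Cdk1, the partner of cyclin B, had 15 UMIs in WBRT-28d and 20 in ShamRT-28d, while the checkpoint kinase gene Bub1 had 12 and 16. Both came to a ratio of 0.539, with intervals that reached 1.11 and 1.215 and so include 1. Melk, a kinase gene transcribed in neural progenitors, had 35 UMIs in WBRT-28d and 44 in ShamRT-28d (ratio 0.572, 0.356–0.912). Bub1b (BubR1) had 141 and 102 UMIs (ratio 0.994) and Plk1 had 53 and 37 (ratio 1.03), so neither was lower.

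The 139 other genes of the cell cycle that were listed for comparison were also lower more often than higher. Of the 135 with at least 20 UMIs, 49 were lower, 2 were higher and 84 were within 1.5-fold, with a median log2 ratio of -0.41. Among those with at least 50 UMIs the lowest ratios were those of Neil3, a DNA glycosylase, with 17 UMIs in WBRT-28d and 80 in ShamRT-28d (ratio 0.153), of the abscission gene Cep55, with 14 and 50 (ratio 0.201), and of Hmmr, a spindle protein, with 20 and 61 (ratio 0.236). The highest were Ccnd3, Sapcd2, with 97 and 46 UMIs (ratio 1.52), and the replication gene Cdc45, with 69 and 39 (ratio 1.27). Ccnd3, the third D-type cyclin, had 5298 UMIs in WBRT-28d and 1657 in ShamRT-28d, a ratio of 2.30 (2.18–2.43). Its level in microglia was 988 CPM in WBRT-28d and 457 CPM in ShamRT-28d, and in endothelial nuclei it was 351 and 164 CPM. The difference was not confined to these nuclei. The ratio was 2.715 (2.293–3.227) in neurons, 2.014 in mural nuclei, 1.582 in oligodendrocytes and 1.498 in astrocytes. In the mixed class described below it was 1.977, with 1777 UMIs in WBRT-28d and 272 in ShamRT-28d. It lay under 1 in OPC (0.775) and choroid plexus nuclei (0.7565), with intervals that include 1.

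To place the transcripts, nuclei were gated by 12 lists of 10 marker genes, none of them a member. The OPC class held 566 nuclei in WBRT-28d and 321 in ShamRT-28d, while the class of immature neurons held 1 and 12. Nuclei whose leading list was less than 2 markers ahead of the next were kept apart as mixed, 2023 in WBRT-28d and 903 in ShamRT-28d. Neuronal transcripts, which can reach other nuclei as free RNA, were found in every glial class at a higher level in WBRT-28d. The mean level of neuronal transcripts in the OPC class was 32.6% of the library level in WBRT-28d and 21.9% in ShamRT-28d, while in the oligodendrocyte class it was 36.1% and 20.85%. Its part in the class ratios was not tested.

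**Figure D2:**
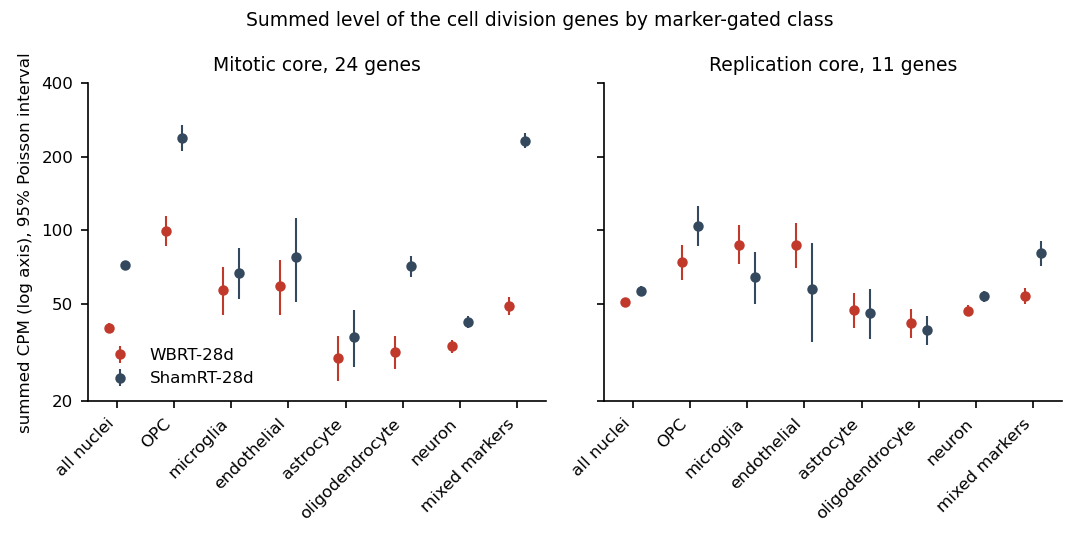
Summed CPM of the mitotic core and of the replication core (log axes) in all nuclei and in 7 classes, with exact 95% Poisson intervals, WBRT-28d in red and ShamRT-28d in blue. The mitotic sum is lower in WBRT-28d, with intervals that do not overlap, in the OPC, oligodendrocyte, neuron and mixed classes. The intervals overlap in microglia, endothelial nuclei and astrocytes. They take UMIs as independent, but in OPC 121 of 199 UMIs in WBRT-28d lay in 7 nuclei, and 224 of 268 in ShamRT-28d in 6.

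In the OPC class the mitotic core had 199 UMIs (99.45 CPM) in WBRT-28d and 268 UMIs (239 CPM) in ShamRT-28d, a ratio of 0.416 (0.344–0.501). Of the 22 members with at least 20 UMIs there, 11 were lower and 1 was higher, against 8.97% lower and 9.57% higher of all 10708 genes measured in that class. Top2a had 30 UMIs in WBRT-28d and 53 in ShamRT-28d (ratio 0.317, 0.195–0.505), Prc1 had 9 and 22 (ratio 0.229) and Casc5 had 8 and 21 (ratio 0.213). These counts rest on few nuclei: 7 nuclei of the class in WBRT-28d and 6 in ShamRT-28d held 121 and 224 of the UMIs of the mitotic core. Outside those nuclei the ratio was 0.9795 (0.669–1.45).

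The D-type cyclins differed among themselves in the OPC class. Ccnd2 had 76 UMIs (38.0 CPM) in WBRT-28d and 26 (23.2 CPM) in ShamRT-28d, a ratio of 1.64 (1.04–2.66) and the only member that was higher there. If free RNA carried each gene at its library level, scaled as the neuronal transcripts were, it would give 17.55 CPM of Ccnd2 in WBRT-28d and 13.2 CPM in ShamRT-28d. Ccnd1 had 176 UMIs (87.96 CPM) in WBRT-28d and 66 (58.9 CPM) in ShamRT-28d, a ratio of 1.49 (1.12–2.01), just inside the size, and the same estimate gave 3.78 and 1.99 CPM for it. Ccnd3, which is no member, had 36 UMIs (18.0 CPM) in WBRT-28d and 26 (23.2 CPM) in ShamRT-28d, a ratio of 0.775 (0.455–1.34).

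In microglia, endothelial nuclei and astrocytes few members reached 20 UMIs, and in microglia and astrocytes none of the mitotic core did. Of the 10 members measured in microglia, 4 were higher and 1 was lower, against 16.34% and 8.961% of the 10635 genes measured there. The sum of all members in microglia had a ratio of 1.304 (1.104–1.542), and that of the mitotic core 0.8481 (0.607–1.187). Of the 10 measured in astrocytes, 1 was higher and 1 was lower, against 8.56% and 10.48% of all genes. In microglia Ccnd2 had 24 UMIs (17.5 CPM) in 21 nuclei of WBRT-28d and 4 UMIs (3.78 CPM) in 4 nuclei of ShamRT-28d, a ratio of 4.63 (1.59–18.4). Both levels lay below the 22.2 and 15.7 CPM of the free RNA estimate. Smc4 in microglia had 37 UMIs in WBRT-28d and 15 in ShamRT-28d, a ratio of 1.90 (1.02–3.735). In endothelial nuclei Mcm6 had 20 UMIs in WBRT-28d and 1 in ShamRT-28d (ratio 6.74, 1.078–279), and Ccnd1 had 21 and 1 (ratio 7.08, 1.14–293), with wide intervals from single UMIs in ShamRT-28d. In astrocytes Ccnd2, which had 240 UMIs (76.9 CPM) in WBRT-28d and 119 (75.0 CPM) in ShamRT-28d, and Diaph3, which had 219 and 133, were within 1.5-fold.

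In the neuron class, 8 of the 35 members measured were lower and 2 higher, against 8.79% lower and 9.21% higher of the 17021 genes measured there. The mitotic core had 1038 UMIs (33.6 CPM) in WBRT-28d and 1124 (42.25 CPM) in ShamRT-28d (ratio 0.796, 0.731–0.867), and 0.882 with the doublet calls kept. In WBRT-28d 3 of these UMIs lay in 1 nucleus that met the stricter mitotic rule given below, and in ShamRT-28d 124 lay in 7. By the identity markers given below, those of the 7 nuclei that held 66, 15, 14, 10 and 10 core UMIs were neurogenic. Ccnb1 was among the 8, with 35 UMIs in WBRT-28d and 136 in ShamRT-28d (ratio 0.222, 0.149–0.324). It was spread over 30 neuronal nuclei in WBRT-28d and 97 in ShamRT-28d, with at most 2 and 6 UMIs in any of them. Slc17a7, the vesicular glutamate transporter of cortical and hippocampal excitatory neurons, was detected in 8 of the 30 nuclei in WBRT-28d (26.7%, 12.3–45.9%) and in 62 of the 97 in ShamRT-28d (63.9%, 53.5–73.4%). Over all neuronal nuclei it was detected in 28.4% in WBRT-28d and 35.1% in ShamRT-28d. Anln, with 308 and 132 UMIs, and Tpx2, with 40 and 21, were the 2 that were higher (ratios 2.01 and 1.64), and the interval of Tpx2, 0.9455 to 2.931, includes 1.

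In the oligodendrocyte class, 10 of the 21 members measured were lower and 1, Tyms, was higher, against 6.51% and 16.6% of the 13247 genes measured there. The mitotic core had 167 UMIs (31.9 CPM) in WBRT-28d and 379 (71.2 CPM) in ShamRT-28d, a ratio of 0.448 (0.371–0.539), which was 0.624 with the doublet calls kept and 0.628 when a lead of 3 markers was asked. In ShamRT-28d, 163 of these UMIs lay in 5 nuclei, and no nucleus of WBRT-28d in the class met the stricter rule for a mitotic nucleus given below. By the identity markers given below, the nuclei holding 72, 40, 37 and 11 of the 163 UMIs were neurogenic. The nucleus holding 3 was a precursor. Outside the mitotic nuclei the ratio was 0.785 (0.637–0.965). Top2a had 3 UMIs in WBRT-28d and 34 in ShamRT-28d, most of the latter in those 5 nuclei.

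Top2a had no UMI in endothelial, mural, ependymal or choroid plexus nuclei or border macrophages of either library, and astrocytes held 7 in WBRT-28d and 0 in ShamRT-28d. Microglia, outside the neural lineages, held 2 Top2a UMIs in WBRT-28d and 10 in ShamRT-28d, of which 9 lay in 1 nucleus. The immature neuron class held 0 and 17. The mixed class held 53 in WBRT-28d and 159 in ShamRT-28d, more than any named class. Since the classes did not place many of these transcripts, the nuclei that carry them were looked at singly.

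A nucleus was called mitotic when it held at least 3 different genes of the mitotic core. By this rule 49 of 14044 nuclei in WBRT-28d (0.349%, 0.258–0.461%) and 70 of 10342 in ShamRT-28d (0.677%, 0.528–0.854%) were mitotic. A UMI of any 1 of the 24 genes was found in 10.85% of nuclei in WBRT-28d and 12.5% in ShamRT-28d. In endothelial nuclei, of which none was mitotic by this rule, the shares were 9.68% and 11.2%, at median depths of 1692 and 1463 UMIs, so a single UMI was read as background. The median of the mitotic nuclei was 20015 UMIs in WBRT-28d and 4664 in ShamRT-28d. Many of those in WBRT-28d were therefore barcodes of very many UMIs, in which 3 genes can come together from several nuclei. Thinned to 1500 UMIs each, with 2168 shallower nuclei of WBRT-28d and 2738 of ShamRT-28d left out, 0.0714% of nuclei in WBRT-28d and 0.450% in ShamRT-28d still met the rule.

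A stricter rule was therefore added after these values had been seen: at most 20000 UMIs, at least 3 mitotic genes, and at least 0.1% of the UMIs of the nucleus from the mitotic core. It left 14 mitotic nuclei of 13846 in WBRT-28d (0.101%, 0.0553–0.170%) and 50 of 10194 in ShamRT-28d (0.4905%, 0.364–0.646%). With the doublet calls kept there were 25 of 15378 in WBRT-28d (0.163%, 0.1052–0.240%) and 51 of 10858 in ShamRT-28d (0.470%, 0.350–0.617%). The share was lower in WBRT-28d under both settings, and the intervals did not overlap. The calls took 11 of the 25 mitotic nuclei of WBRT-28d and 1 of the 51 of ShamRT-28d.

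The mitotic nuclei were then sorted by markers that are no members. The lists were Pdgfra, Cspg4, Olig1, Olig2, Sox10 and Lhfpl3 for oligodendrocyte precursors, Dlx1, Dlx2, Dcx, Sox11, Sox4, Igfbpl1, Egfr and Sp9 for the neurogenic lineage, and Csf1r, Cx3cr1, P2ry12, Tmem119 and Inpp5d for microglia. A nucleus was assigned with at least 2 UMIs of a list and at least 2 times as many as of any other. Over all nuclei of up to 20000 UMIs, this rule called 3361 of 13846 precursors in WBRT-28d and 2014 of 10194 in ShamRT-28d. It called 1234 and 982 neurogenic. The OPC class held only 566 and 321 nuclei, so the rule is looser than the gates and a single assignment is not secure. These lists were chosen with the values known.

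The libraries differed most in dividing nuclei with neurogenic markers. None of the 14 mitotic nuclei of WBRT-28d had this identity, which allows a share of up to 0.0217% of all nuclei, and 31 of the 50 of ShamRT-28d did, or 0.304% of all nuclei (0.207–0.431%). With the doublet calls kept there were 5 in WBRT-28d (0.0325%, 0.0106–0.0759%) and 31 in ShamRT-28d (0.2855%, 0.194–0.405%), so that every neurogenic mitotic nucleus of WBRT-28d was among the doublet calls and none of ShamRT-28d was. The intervals of the 2 libraries did not overlap with the calls removed or kept.

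The share of dividing oligodendrocyte precursors did not differ beyond counting error. They numbered 9 in WBRT-28d (0.0650% of all nuclei, 0.0297–0.123%) and 10 in ShamRT-28d (0.0981%, 0.0471–0.180%), or 13 and 10 with the doublet calls kept (0.0845%, 0.0450–0.145%, and 0.0921%, 0.0442–0.169%). As a share of the OPC class, mitotic nuclei made up 7 of 566 in WBRT-28d (1.24%, 0.499–2.53%) and 6 of 321 in ShamRT-28d (1.87%, 0.689–4.02%). A difference in this share was not detectable at this depth, and with 2 mitotic genes asked in place of 3 its direction turned, with 15 of 566 in WBRT-28d (2.65%, 1.49–4.33%) and 8 of 321 in ShamRT-28d (2.49%, 1.082–4.85%). Microglia gave 2 mitotic nuclei with 12 Top2a UMIs in WBRT-28d and 1 with 9 in ShamRT-28d, while 3 and 8 nuclei had no clear identity.

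**Figure D3:**
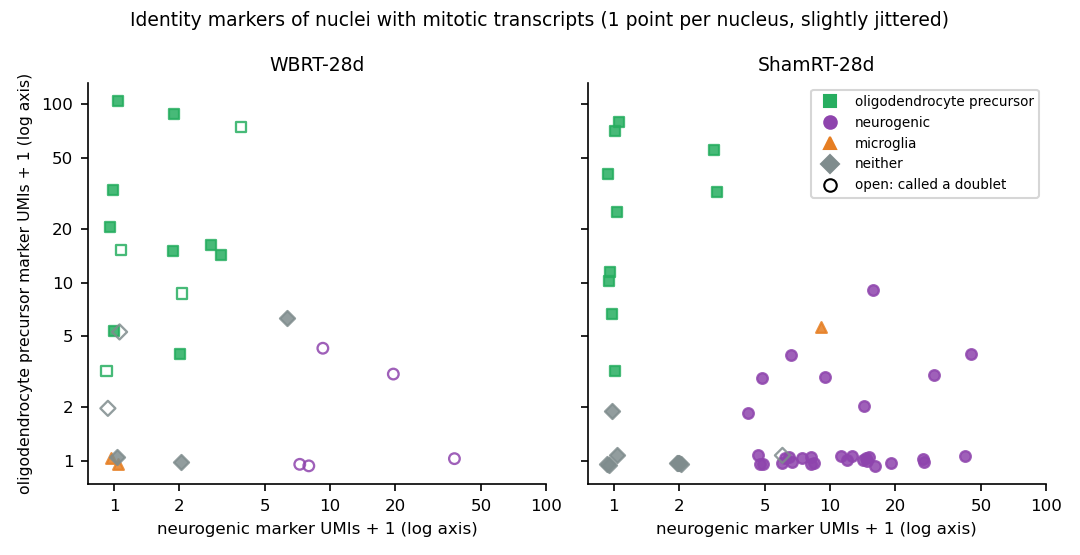
UMIs of the neurogenic markers (x) and of the oligodendrocyte precursor markers (y), each plus 1 on a log axis, in every nucleus that met the stricter rule, WBRT-28d left and ShamRT-28d right. Open symbols are doublet calls. ShamRT-28d has 31 neurogenic nuclei to the right, WBRT-28d has 5, all of them doublet calls, and the precursors at the upper left number 13 in WBRT-28d and 10 in ShamRT-28d.

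Single markers are given as a description, since most of them also sorted the nuclei, and they were not alike. With the doublet calls removed, Dlx1, a homeobox gene of the interneuron lineage, was detected in 1 of 14 mitotic nuclei in WBRT-28d and in 22 of 50 in ShamRT-28d, and in 1.11% and 1.60% of the other nuclei. Egfr, which marks amplifying progenitors, was detected in 2 of 14 and in 20 of 50, and in 10.6% and 6.65% of the other nuclei. Dcx, a microtubule protein of migrating young neurons, was detected in 2 of 14 in WBRT-28d and in 20 of 50 in ShamRT-28d. In the other nuclei it was detected in 15.65% and 16.22%. But Sox11, a transcription factor of the same list, was detected in 5 of 14 (35.7%) and in 21 of 50 (42.0%). In the other nuclei Sox11 was detected in 5.86% and 4.82%. Pdgfra, the growth factor receptor of precursors, was detected in 9 of 14 in WBRT-28d and in 10 of 50 in ShamRT-28d. In the other nuclei it was detected in 8.79% and 5.94%. Eomes, a gene of the intermediate progenitors of the dentate gyrus, was detected in none of either set.

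The 5 neurogenic mitotic nuclei of WBRT-28d held 1869 to 8556 UMIs (median 5400) and 4 to 19 genes of the mitotic core (median 18). The 31 of ShamRT-28d held 986 to 11052 UMIs (median 3864) and 3 to 18 of these genes (median 8). The precursors that were not doublet calls held 3 to 18 genes (median 9) in WBRT-28d and 3 to 20 (median 10.5) in ShamRT-28d. The ranges of the libraries overlapped for both identities.

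Ccnd2 was found in most neurogenic mitotic nuclei and in few mitotic precursors. Ccnd1 was rare in the neurogenic ones, but its share among the precursors was not alike in the 2 libraries. Neither cyclin gene was used to find or sort these nuclei. Of all nuclei, mitotic or not, 14.41% (WBRT-28d) and 13.18% (ShamRT-28d) held Ccnd2. For Ccnd1 these shares were 4.009% and 3.201%. Ccnd2 was detected in 5 of the 5 neurogenic mitotic nuclei of WBRT-28d and in 29 of the 31 of ShamRT-28d, where it had 168 UMIs. It was detected in 2 of the 13 mitotic precursors of WBRT-28d and in 0 of the 10 of ShamRT-28d. Ccnd1 was detected in 8 of the 9 mitotic precursors of WBRT-28d that were not doublet calls, in 2 of the 4 that were, and in 3 of the 10 of ShamRT-28d. In neurogenic mitotic nuclei it was detected in 0 of 5 in WBRT-28d and in 2 of 31 in ShamRT-28d.

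Nuclei with markers of immature neurons, which such progenitors give rise to, were also fewer in WBRT-28d. Nuclei with at least 4 of the 10 markers of immature neurons, whatever their other markers, numbered 34 of 13846 in WBRT-28d (0.246%, 0.170–0.343%) and 94 of 10194 in ShamRT-28d (0.922%, 0.746–1.13%). With at least 5 markers there were 6 in WBRT-28d (0.0433%, 0.0159–0.0943%) and 41 in ShamRT-28d (0.402%, 0.289–0.545%). By the stricter rule 1 of the 34 nuclei of WBRT-28d was mitotic, and so were 15 of the 94 of ShamRT-28d. Dcx, Sox11, Sox4, Igfbpl1, Dlx2 and Sp9 are on this list and on the neurogenic one, so the 2 counts are not independent. The 34 nuclei had a median of 9626 UMIs and 25 of them were in the neuron class. For the 94 of ShamRT-28d these values were 4392 and 37. With the doublet calls kept, 47 of 15378 nuclei in WBRT-28d (0.306%, 0.225–0.406%) and 102 of 10858 in ShamRT-28d (0.939%, 0.767–1.14%) had at least 4 markers.

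The members differed in how far their UMIs were gathered in the mitotic nuclei. Over both libraries, with barcodes over 20000 UMIs and doublet calls left out, 88.0% of the Top2a UMIs lay in the 64 mitotic nuclei, as did 85.2% of Bub1, 54.55% of Cdk1, 54.2% of Casc5 and 52.7% of Aspm. The shares were 27.2% for Mki67, 20.04% for Prc1, 9.85% for Ccnb1, 8.54% for Plk1 and 3.31% for Ccnb2. Among genes outside the mitotic core they were 9.25% for Smc4, 8.45% for Diaph3, 3.58% for Ccnd2, 1.42% for Pcna and 1.25% for Anln. The mitotic genes were among those that chose these nuclei, so their shares are a description. Rrm2 was not used to choose them and had 36.2%.

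Outside the mitotic nuclei the mitotic core had a ratio of 0.816 (0.7605–0.876) over all nuclei and the replication core one of 0.946 (0.891–1.004). By class the mitotic core was not nearer to 1 in all of them. Beside the values of OPC and oligodendrocytes above, it was 0.841 (0.767–0.922) in neurons and 0.604 (0.486–0.753) in the mixed class, but in astrocytes it was 0.5885 (0.408–0.851) outside and 0.824 (0.588–1.16) with the mitotic nuclei, of which 1 with 27 core UMIs lay in WBRT-28d and 0 in ShamRT-28d. Top2a had 22 UMIs in WBRT-28d and 23 in ShamRT-28d outside mitotic nuclei (ratio 0.709, 0.377–1.33), and Casc5 had 47 and 46 (ratio 0.758, 0.494–1.16). The ratio of Ccnb1 was about as low as over all nuclei, with 41 UMIs in WBRT-28d and 142 in ShamRT-28d (ratio 0.214, 0.147–0.305). Prc1, with 158 and 209 UMIs (ratio 0.561, 0.453–0.693), and Mki67, with 112 and 139 (ratio 0.5975, 0.462–0.772), also had intervals that stayed under 1.

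**Figure D4:**
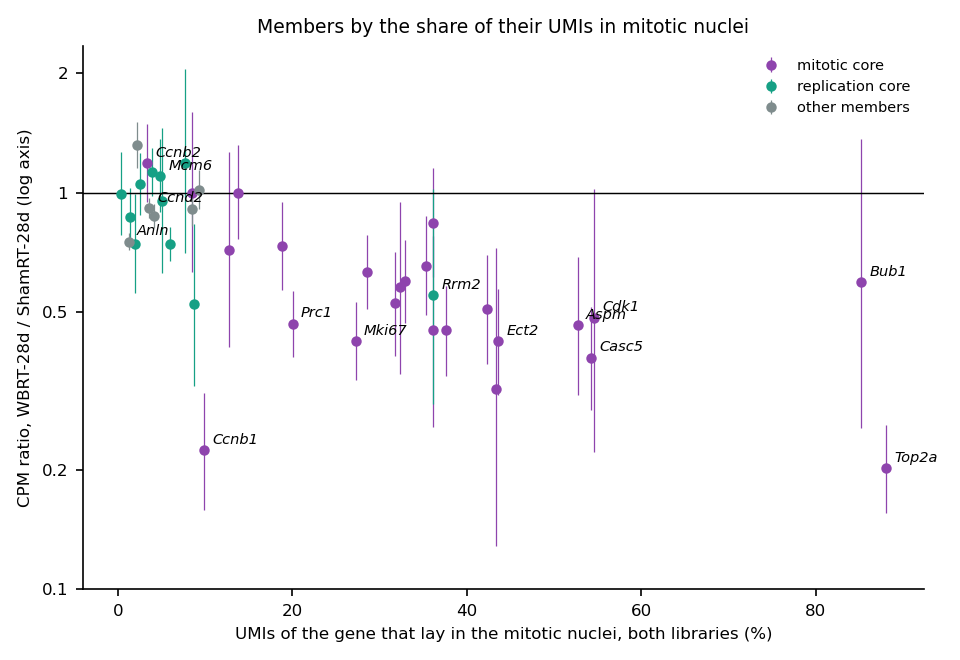
Percent of each member's UMIs that lay in mitotic nuclei, both libraries together (x), against the ratio of its CPM, WBRT-28d over ShamRT-28d, in nuclei of up to 20000 UMIs (y, log axis), with exact 95% counting intervals. The 5 members with the highest shares, Top2a, Bub1, Cdk1, Casc5 and Aspm, all have ratios under 1, and Ccnb1 stands apart with 9.85% and a low ratio. Both axes come from the same UMIs.

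Markers of neural progenitors as a list were not lower in WBRT-28d. The 12 genes, among them Egfr, Hes5, Nes, Notch1, Hopx and Sox2, several of which astrocytes or other glia also transcribe, summed to 152.5 CPM in WBRT-28d and 122 CPM in ShamRT-28d. At least 3 of them were found in 267 of 14044 nuclei in WBRT-28d and in 121 of 10342 in ShamRT-28d. Among the mitotic nuclei they were found in 3 of 14 in WBRT-28d and 14 of 50 in ShamRT-28d, too few nuclei to order the libraries.

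Markers of blood-borne cells were seen at low levels. Of the 9 T and NK cell genes found, the sum was 13.1 CPM in WBRT-28d and 12.3 CPM in ShamRT-28d, with 1 gene at 0 in each, and at least 3 of them were seen in 0 of the 14 mitotic nuclei of WBRT-28d and 1 of the 50 of ShamRT-28d. The 10 neutrophil genes summed to 32.9 CPM in WBRT-28d and 27.3 CPM in ShamRT-28d, and no nucleus of either library held 3 of them. The 9 erythroid genes summed to 37.1 and 46.9 CPM, with none of the mitotic nuclei holding 3. How much of the neurogenic zones each library sampled was not measured, and its part in the count of neurogenic nuclei was not tested.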

How the data were processed

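The deposited matrices hold raw UMI counts per gene and nucleus. The authors made them with Cell Ranger 5.0.0 on a custom pre-mRNA reference, so that reads in introns count, and the submitters' notes give mm10. Barcodes needed 500 detected genes or more and no more than 5% of UMIs from mitochondrial genes. Scrublet (scanpy 1.11.5) was run per library with an expected rate of 0.8% per 1000 barcodes, and its calls were removed in the main analysis (1625 in WBRT-28d and 698 in ShamRT-28d). UMIs were summed per library and class, scaled to CPM and compared as WBRT-28d over ShamRT-28d with exact conditional binomial intervals. Shares of nuclei have Clopper-Pearson intervals, sums Poisson intervals. A count of 0 allows up to 3 nuclei. A gene was called higher or lower past 1.5-fold, if its UMIs in the 2 libraries came to 20 or more. A class needed at least 3 markers of its list and 2 more than of any other. Thinning used 50 draws. The scripts were tested on simulated counts (numpy 2.4.6, scipy 1.17.1). Every member is named, and of the other cell cycle genes the 3 highest and 3 lowest ratios among those with at least 50 UMIs. Promoter windows came from RefSeq (GRCm38.p6), and the gene starts they were compared with from GENCODE. The members and lists were chosen with earlier results of these data known. The identity lists, the stricter rule for mitotic nuclei, the core with its left-out genes and the counts of immature neurons with doublet calls kept were added after these data had been seen. The alternatives changed the doublet calls, filters, scaling, fold, gates and the number of mitotic genes.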

Additional observations from a re-analysis of the deposited data

Results flagged for a closer look

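The barcodes called doublets lie outside the main analysis and held mitotic transcripts, which is what marked them out. At least 3 genes of the mitotic core were found in 17 of 1624 such barcodes in WBRT-28d (1.05%, 0.611–1.67%) and in 5 of 695 in ShamRT-28d (0.719%, 0.234–1.67%). Of these, 11 in WBRT-28d and 1 in ShamRT-28d met the stricter rule. The 11 were 5 nuclei with neurogenic markers, 4 with precursor markers and 2 with neither. Whether they were doublets of a dividing and another nucleus was not tested. In WBRT-28d the neurogenic ones held 0 to 3 UMIs of the precursor markers and 6 to 35 of the neurogenic markers. By the class gates they fell in the neuron, oligodendrocyte and mixed classes. Neurogenic mitotic nuclei of ShamRT-28d that were not doublet calls were found in these classes too.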

How the results depend on the processing

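No paired analysis was possible because each condition had 1 library. The share of mitotic nuclei in the OPC class changed its direction with 2 genes in place of 3, at 2.65% in WBRT-28d and 2.49% in ShamRT-28d against 1.24% and 1.87%, with intervals that overlap under both. No other result changed its direction under the alternatives run. With Scrublet doublets kept, the mitotic core ratio was 0.631 over all nuclei, 0.882 in neurons, 0.624 in oligodendrocytes and 0.319 in the mixed class, and with all deposited barcodes it was 0.631 over all nuclei. Counted per 1000 nuclei it was 0.718 in neurons and 0.311 in the mixed class. A lead of 1 marker gave 0.654 in neurons, and a lead of 3 markers gave 0.628 in oligodendrocytes and 0.253 in the mixed class. At 2-fold, 9 members were lower, but the share of all genes past 2-fold was not counted. The share of mitotic nuclei was 1.21% in WBRT-28d and 1.73% in ShamRT-28d with 2 genes, 0.157% and 0.464% with 4 genes, and 0.0714% and 0.450% after thinning. Further alternatives were added after the data were seen. The core ratio was 0.635 with Smc4 and 0.744 with Smc4, Anln and Diaph3. Without barcodes over 20000 UMIs the share was 0.173% in WBRT-28d, and with at least 0.1% of mitotic UMIs as well it was 0.101% in WBRT-28d and 0.4905% in ShamRT-28d. Why these values moved was not tested. Of the alternative values, 58 stayed within counting error, or within 1.5 times for counts, and 25 moved. The neurogenic count is the most exposed to the doublet calls, at 0 or 5 nuclei in WBRT-28d against 31 in ShamRT-28d. It was 1 against 34 with no minimum share of mitotic UMIs, and 0 against 23 with at least 6 mitotic genes. Genes of under 50 UMIs have wide intervals, and 2 brains per library give no estimate of the spread between mice.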
